A study of Mus musculus with 6 samples.

Results

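Proximal sodium, bicarbonate and water transport was represented by 7 genes: Atp1b1, Fxyd2, Slc9a3, Slc9a3r1, Slc4a4, Pdzk1 and Aqp1. They were taken by name from the 18822 genes with a value, matched by Entrez gene ID to RefSeq symbols, and all 7 passed the expression filter that 12388 genes passed. RNA was sequenced from renal glomeruli of mice of strain C57BL/6J, all with diabetic kidney disease, in 3 libraries from proteinase 3 knockout mice (PR3_KO) and 3 from wild-type mice (WT). Proteinase 3, encoded by Prtn3, is a serine protease of neutrophil granules. Both genotypes carried the disease, so the contrast is between genotypes within diabetic kidney disease. Age, sex, the way diabetes was brought about, the making of the knockout and whether each library was 1 animal were not given in the sources used here. P-values therefore measure only how far these samples spread, and that spread may be technical.

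The proximal tubule joins the glomerulus at its urinary pole and reabsorbs most of the filtered sodium, bicarbonate and water. The sodium pump in the basolateral membrane keeps cell sodium low. That gradient drives the brush border exchanger NHE3 (Slc9a3), which takes up sodium and secretes protons. The protons turn filtered bicarbonate into carbon dioxide, and bicarbonate rebuilt in the cell leaves through the basolateral cotransporter NBCe1 (Slc4a4). Water follows through aquaporin 1 (Aqp1) in both membranes. The PDZ scaffolds NHERF1 (Slc9a3r1) and PDZK1 anchor carriers in the brush border. The genes are best known from the tubule rather than the glomerular tuft, and the label of the tissue is glomeruli.

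Levels are FPKM, fragments per unit of transcript length and of mapped fragments, so they can be compared between genes. Each fold change is the PR3_KO mean minus the WT mean of log2(FPKM + 1), a scale that understates the change of low genes. They were tested with limma over all 12388 genes, with Benjamini-Hochberg adjusted p under 0.05 as the threshold for "rose" or "fell". The files give no counts. Among 53 olfactory receptor genes with a median span of 942 nucleotides, the commonest nonzero value was 0.08 FPKM in WT 1 and 0.07 FPKM in each of the other 5, carried by 3 to 7 genes per library. Read as 1 fragment each, this puts the depth near 13300000 fragments in WT 1 and 15200000 in the others, a rough figure. Of these genes 2 had a lower nonzero value in PR3_KO 2, so the reading is less sure there. The values 0.07 and 0.08 differ only in the last decimal given, so the lower depth of WT 1 may be rounding. At 15200000 fragments the lowest value among the 7 genes, 6.79 FPKM for Slc9a3 in WT 2, would be about 528 fragments over its longest annotated transcript of 5118 nucleotides. Summed FPKM ran from 566772 to 604697 in PR3_KO and from 494316 to 543564 in WT. Prtn3 itself was listed at 0.14, 0 and 0.07 FPKM in PR3_KO and 0.46, 0.21 and 0.22 FPKM in WT (two-sided exact permutation test, p = 0.1, the lowest value possible with 3 against 3 libraries), low levels that check the labels only weakly.

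The label of the tissue was checked against its markers. All 12 podocyte markers were above the filter, with a summed level of 411 to 645 FPKM in PR3_KO and 739 to 1191 FPKM in WT. Of these 12 markers 6 fell and 0 rose, where 41.1% of all tested genes fell and 11.7% rose. The 24 proximal tubule markers, chosen without the 7 genes, summed to 61151 to 79088 FPKM in PR3_KO and 13094 to 32931 FPKM in WT. Kap, the most abundant of them, was at 40546 to 57590 FPKM in PR3_KO and 5248 to 18509 FPKM in WT. It made up most of the sum in every PR3_KO library but not in WT 2, so these sums largely follow Kap. The median of log2(FPKM + 1) over the 24 markers was 8.82 to 8.93 in PR3_KO and 7.60 to 8.61 in WT. Of these 24 markers 19 rose and 0 fell, with a median log2 fold change of 0.96, and WT 2 had the lowest sum. Of 8 macrophage markers 8 fell, and of 7 mesangium and smooth muscle markers 4 fell and 0 rose. The part of these cell types in the results was not tested. In bulk tissue, more cells of a type and more RNA per cell cannot be told apart. The 7 genes were therefore also read after each library had been scaled to the proximal tubule markers.

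Of the 7 genes, 5 rose in PR3_KO: Slc9a3, Slc4a4, Aqp1, Fxyd2 and Slc9a3r1. None fell. Pdzk1 and Atp1b1 were not past the threshold. Over all tested genes 11.7% rose and 41.1% fell. The counts given for each gene list are to be read beside these shares. The 7 genes had a median log2 fold change of 0.63, against -0.26 over all tested genes. In 6 of the 7 genes every PR3_KO library lay above every WT library, an order seen in 16.0% of all tested genes, with the reverse order in 49.1%. The genes were chosen with earlier results on these libraries known, so these counts are descriptions of the set. WT 2 was the lowest of the 6 libraries for all 7 genes.

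**Figure D1:**
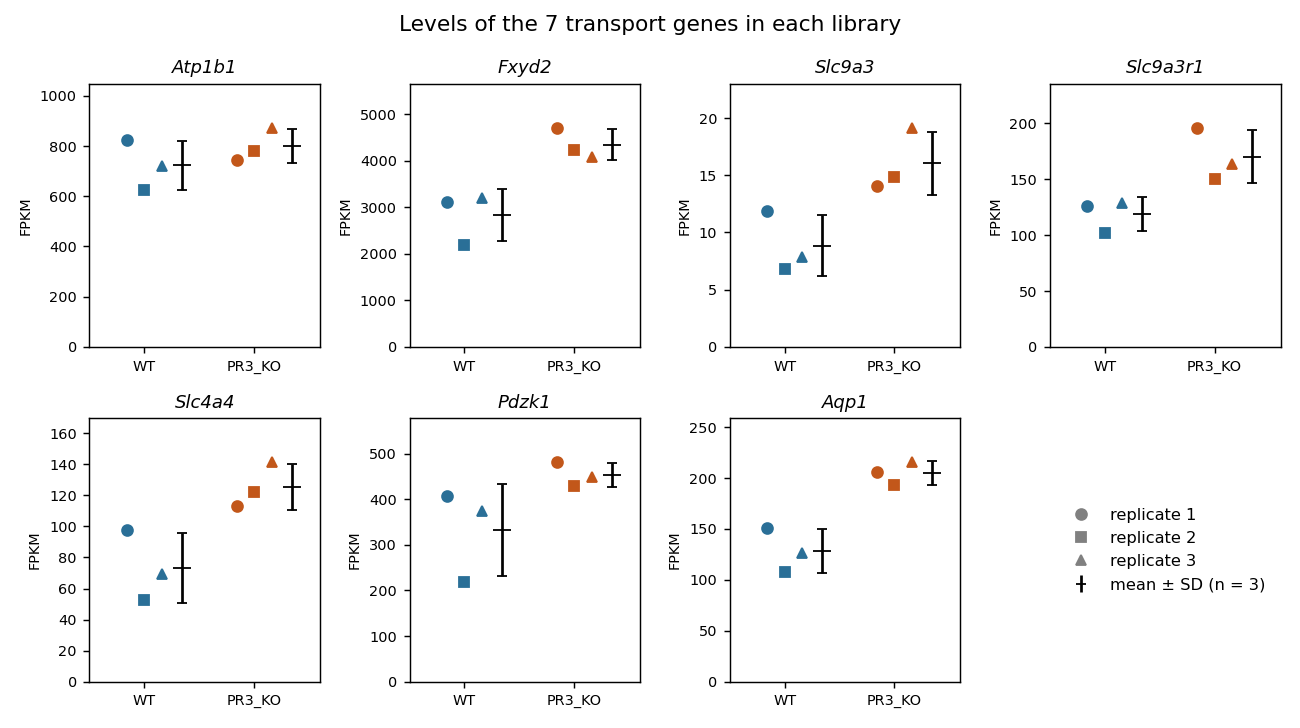
FPKM of each gene (vertical axes, from 0) in the 3 WT and 3 PR3_KO libraries, with marker shapes for the replicate number and the mean ± SD at the side. The genotypes overlap for Atp1b1, where WT 1 at 822.65 FPKM lies above PR3_KO 1 and 2, and do not overlap for the other 6 genes.

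Fxyd2 encodes the gamma subunit of the sodium pump, a small membrane protein that tunes the affinity of the pump for sodium. It lies on chromosome 9 from 45399709 to 45410278 on the plus strand (GRCm38.p6, gene ID 11936). It was by far the most abundant of the 7, at 4718.86, 4232.51 and 4080.77 FPKM in PR3_KO 1, 2 and 3 and 3122.42, 2183.04 and 3200.52 FPKM in WT 1, 2 and 3. Its place among the tested genes ranged from 5 to 7 in order of level across the libraries. The mean was 4344 ± 333 FPKM in PR3_KO and 2835 ± 566 FPKM in WT (SD, n = 3 per genotype), and the gene rose by a log2 fold change of 0.63 (SE 0.19, limma adjusted p = 0.0256). The call was lost without PR3_KO 1, 2 or 3 in turn (limma adjusted p = 0.0952, 0.0668 and 0.0643). Fxyd2 alone made up 68.7% to 72.9% of the summed FPKM of the 7 genes in PR3_KO and 65.9% to 69.2% in WT.

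Atp1b1 encodes the beta1 subunit, which brings the catalytic alpha subunit of the pump to the membrane. It lies on the minus strand of chromosome 1 from 164437099 to 164458355 (gene ID 11931). Its level was 743.37, 779.94 and 873.64 FPKM in PR3_KO and 822.65, 625.17 and 720.07 FPKM in WT. The genotypes overlapped, with WT 1 second only to PR3_KO 3. The means were 799 ± 67.2 and 723 ± 98.8 FPKM (SD, n = 3 per genotype) and the log2 fold change was 0.15 (SE 0.15, limma adjusted p = 0.425). It was the smallest difference of the 7. Without WT 2 and PR3_KO 3 together the difference was -0.015 (limma adjusted p = 0.945).

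Apart from these 2 genes, 8 further pump subunits and FXYD regulators of 12 listed were tested, of which 5 fell and 0 rose (3 and 1 with median-of-ratios scaling). Fxyd5, a FXYD protein also called dysadherin, fell, with 56.8 ± 8.16 against 162 ± 32.8 FPKM (limma log2 fold change -1.49, SE 0.18, adjusted p = 0.00091). Atp1b3, the beta3 subunit, fell, with 51.5 ± 5.02 against 98.7 ± 11.1 FPKM (limma log2 fold change -0.92, adjusted p = 0.00127). Fxyd6, a further FXYD protein, fell to 2.56 ± 0.238 against 4.33 ± 0.922 FPKM (adjusted p = 0.0134 by limma). The call of Fxyd6 was lost with median-of-ratios scaling and without WT 2 and PR3_KO 3 together (limma adjusted p = 0.0557 and 0.0567). Within a library Fxyd5 was at 0.0104 to 0.0160 of the level of Fxyd2 in PR3_KO and at 0.0415 to 0.0895 of it in WT, and Atp1b3 was at 0.0584 to 0.0727 of Atp1b1 in PR3_KO and 0.104 to 0.169 in WT. These ratios do not depend on how a library is scaled, and were not tested.

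Slc9a3, the brush border sodium-proton exchanger NHE3, is transcribed from the plus strand of chromosome 13 (74086255 to 74169442, gene ID 105243). It was the least abundant of the 7, at 14.09, 14.88 and 19.17 FPKM in PR3_KO and 11.88, 6.79 and 7.89 FPKM in WT. All PR3_KO libraries were above all WT libraries, with a narrow gap between PR3_KO 1 and WT 1. It had the largest log2 fold change of the 7, 0.81 (SE 0.20, 16.0 ± 2.73 against 8.85 ± 2.68 FPKM, n = 3 per genotype, limma adjusted p = 0.0112), and was past the threshold without any 1 of the 6 libraries (0.66 to 1.02). Of 5 other tested SLC9 exchangers of 8 listed, 2 rose and 0 fell (3 and 0 with median-of-ratios scaling). Slc9a2, encoding NHE2, was at 12.90, 12.29 and 14.32 FPKM in PR3_KO and 9.47, 6.66 and 6.77 FPKM in WT (limma log2 fold change 0.73, adjusted p = 0.00437). Slc9a8, encoding NHE8, a brush border exchanger of the young proximal tubule, rose by 0.36 (limma adjusted p = 0.0342), a call that was lost without any 1 of the 3 PR3_KO libraries and without WT 2 or WT 3 (limma adjusted p = 0.0555 to 0.112).

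Slc4a4 encodes NBCe1, the electrogenic exit path for bicarbonate across the basolateral membrane. It spans chromosome 5 from 88793858 to 89239656 on the plus strand (gene ID 54403). Levels were 112.88, 121.87 and 141.32 FPKM in PR3_KO and 97.63, 52.93 and 69.31 FPKM in WT. The lowest PR3_KO library was above WT 1, the highest WT library, and WT 1 was at 1.84 times the level of WT 2. The gene rose by a log2 fold change of 0.80 (SE 0.21, 125 ± 14.5 against 73.3 ± 22.6 FPKM, n = 3 per genotype, limma adjusted p = 0.0156). The call was lost without PR3_KO 3 (0.72, limma adjusted p = 0.0554). Slc4a4 is known to start from alternative promoters, the kidney form from the one farther into the gene. RefSeq (GRCm38.p6) gives windows of 250 bases before to 50 after each of 2 start sites, with a GC content of 80.0% and 48.3%. Both windows lie past the first annotated base of the gene, so some starts may have no window. The deposited value is per gene and cannot separate the starts. The window of the start farther into the gene is shown 5′ to 3′ as the one that differs from the GC-rich windows of most of the other genes, with AGGTCA (here on the other strand, tgacct) and CCAAT (here attgg) in capitals, at chr5:89027716-89028015 on the plus strand.

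Slc4a4 start farther into the gene: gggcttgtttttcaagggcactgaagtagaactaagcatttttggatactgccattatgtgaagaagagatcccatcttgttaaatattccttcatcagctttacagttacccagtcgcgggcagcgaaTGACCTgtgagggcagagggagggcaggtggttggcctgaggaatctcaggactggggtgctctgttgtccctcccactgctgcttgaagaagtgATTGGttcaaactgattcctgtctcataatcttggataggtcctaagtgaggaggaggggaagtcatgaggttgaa

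Of 5 other tested SLC4 bicarbonate transporters of 9 listed, 4 fell and 0 rose (1 and 0 with median-of-ratios scaling). Slc4a1, the anion exchanger of red cells and acid-secreting intercalated cells, fell, with 3.86 ± 0.599 against 8.02 ± 1.21 FPKM (limma log2 fold change -0.89, SE 0.14, adjusted p = 0.00214). Slc4a7, Slc4a3 and Slc4a2 also fell, with limma log2 fold changes of -0.47, -0.60 and -0.29 (adjusted p = 0.0159, 0.0287 and 0.0428). None of these 3 was past the threshold with median-of-ratios scaling, where Slc4a2 was at 0.022 (limma adjusted p = 0.841). They also lost their calls without PR3_KO 1 (limma adjusted p = 0.0588, 0.0906 and 0.14). Slc4a4 was thus the only tested SLC4 gene with a fold change above 0 as deposited.

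All 7 listed enzymes and carriers of bicarbonate and ammonia handling were tested, and 4 rose and 0 fell (6 and 0 with median-of-ratios scaling). Pck1, which feeds gluconeogenesis from the carbon left by ammonia production, rose, with 2369 ± 467 against 696 ± 241 FPKM (limma log2 fold change 1.81, adjusted p = 0.00211). Glud1, glutamate dehydrogenase, rose by 0.78, and Car14, a membrane-bound carbonic anhydrase, by 0.80 (limma adjusted p = 0.00326 and 0.00746). Car2, the cytosolic carbonic anhydrase, was at 232.59, 233.40 and 282.35 FPKM in PR3_KO and 198.22, 139.24 and 195.45 FPKM in WT (limma log2 fold change 0.50, adjusted p = 0.0388). It was no longer past the threshold without PR3_KO 1, 2 or 3 in turn (limma adjusted p = 0.0716, 0.0673 and 0.135).

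Slc9a3r1 encodes NHERF1, the scaffold that links NHE3 and the phosphate carrier Slc34a1 to ezrin under the brush border. It is transcribed from the plus strand of chromosome 11 (115163341 to 115181178, gene ID 26941). It was at 196.22, 150.59 and 163.30 FPKM in PR3_KO and 125.89, 101.57 and 128.89 FPKM in WT. PR3_KO 1 was highest, and no WT library reached the lowest PR3_KO library. It rose by a log2 fold change of 0.51 (SE 0.15, 170 ± 23.5 against 119 ± 15.0 FPKM, n = 3 per genotype, limma adjusted p = 0.0219). The call was lost without PR3_KO 1 (0.41, limma adjusted p = 0.0816) and without PR3_KO 3 (0.54, limma adjusted p = 0.0558).

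Pdzk1 encodes PDZK1, or NHERF3, which gathers the phosphate, urate and organic ion carriers of the brush border. It is transcribed from the plus strand of chromosome 3 (96829456 to 96870926, gene ID 59020). Its levels were 480.96, 430.00 and 448.78 FPKM in PR3_KO and 406.11, 218.61 and 374.58 FPKM in WT. The genotypes did not overlap, but WT 1 and 3 were close to the PR3_KO libraries and WT 2 was well below them. The log2 fold change was 0.49 (SE 0.23, 453 ± 25.8 against 333 ± 100 FPKM, n = 3 per genotype, limma adjusted p = 0.104). It was 0.21 without WT 2 (limma adjusted p = 0.125), and 0.82 and past the threshold with median-of-ratios scaling (limma adjusted p = 0.0421).

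Windows of 250 bases before to 50 after the start site were found in RefSeq (GRCm38.p6) for 6 of the 7 genes, 8 windows in all. For Slc9a3, Slc4a4 and Pdzk1 the annotated gene begins before its windows, so some starts may have none. The 8 windows were searched on both strands for letters chosen after they had been seen. CAAAGTCCA, bound by the tubular nuclear receptor HNF4A, was in 1 of the 8 windows and in 0.475% of 32851 windows of all genes. That window was the first of 2 for Pdzk1, named first start below, and lies past the annotated start of the gene. GTTAAT, an HNF1 half-site, and TATAAA were in none of the 8 windows, and in 7.10% and 13.6% of all windows. GGGCGG, the GC box, was also searched and is not in capitals. CCAAT, in capitals in all 3 windows below, was in 37.4% of all windows, and it occurred 3 times in the Slc9a3r1 window. The Pdzk1 window also has AGGTCA, the nuclear receptor half-site, in capitals, letters found in 16.3% of all windows. The windows are shown 5′ to 3′ for the 2 scaffold genes and, beside them, for Atp1b1, the gene with the smallest difference. They lie at chr3:96829815-96830114 (plus strand), chr11:115163091-115163390 (plus strand) and chr1:164458306-164458605 (minus strand), with a GC content of 51.0%, 64.3% and 71.0%, where the median of all windows was 52.7%. Where these letters occur is a description and shows no binding.

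Pdzk1 first start: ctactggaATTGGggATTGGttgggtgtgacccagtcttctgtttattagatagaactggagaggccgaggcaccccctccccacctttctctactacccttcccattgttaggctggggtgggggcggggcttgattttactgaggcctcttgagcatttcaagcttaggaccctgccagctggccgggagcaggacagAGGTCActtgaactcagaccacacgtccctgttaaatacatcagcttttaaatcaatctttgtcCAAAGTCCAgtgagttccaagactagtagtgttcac
Slc9a3r1: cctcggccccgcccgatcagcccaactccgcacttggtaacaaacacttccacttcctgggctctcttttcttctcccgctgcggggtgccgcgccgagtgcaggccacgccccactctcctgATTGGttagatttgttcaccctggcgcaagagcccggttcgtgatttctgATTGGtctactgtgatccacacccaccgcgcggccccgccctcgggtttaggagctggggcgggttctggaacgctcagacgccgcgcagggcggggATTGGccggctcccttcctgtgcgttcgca
Atp1b1: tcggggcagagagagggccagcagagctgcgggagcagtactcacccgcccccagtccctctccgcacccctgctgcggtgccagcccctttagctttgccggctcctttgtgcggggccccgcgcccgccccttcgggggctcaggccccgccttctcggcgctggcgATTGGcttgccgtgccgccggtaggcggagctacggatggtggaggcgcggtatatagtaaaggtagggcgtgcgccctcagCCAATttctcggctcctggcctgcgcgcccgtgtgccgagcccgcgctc

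Of 13 other tested scaffolds and regulators of NHE3 of 15 listed, 6 fell and 1 rose (4 and 3 with median-of-ratios scaling). As deposited these counts are near the shares of all tested genes, 41.1% fallen and 11.7% risen. Sgk1, a kinase induced by corticosteroids that raises sodium transport, fell, with 133 ± 15.4 against 419 ± 46.0 FPKM (limma log2 fold change -1.65, SE 0.14, adjusted p = 0.000684). Radixin (Rdx) and moesin (Msn), relatives of ezrin that link membrane to actin, were lower, with limma log2 fold changes of -1.05 and -1.41 (adjusted p = 0.000773 and 0.00142). Ezrin itself (Ezr, named after its values were seen) was at 128 ± 6.02 and 125 ± 5.58 FPKM (limma log2 fold change 0.04, adjusted p = 0.764). Slc9a3r2, the NHERF2 scaffold, also abundant in podocytes, was at 185.60, 231.29 and 204.79 FPKM in PR3_KO and 317.97, 411.99 and 418.22 FPKM in WT (limma log2 fold change -0.88, SE 0.16, adjusted p = 0.00308). NHERF2 and NHERF1 thus moved in opposite directions as deposited and with median-of-ratios scaling. Per unit of Slc9a3r1, Slc9a3r2 stood at 0.946, 1.54 and 1.25 in the PR3_KO libraries and at 2.53, 4.06 and 3.24 in the WT libraries, a ratio chosen after the values were seen and not tested. The member that rose was Pdzd3, the NHERF4 scaffold, named after its values were seen (limma log2 fold change 0.70, adjusted p = 0.0168, and 0.0596 without PR3_KO 1).

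Among 12 tested carriers of 13 known to bind PDZK1 or NHERF1, 7 rose and 1 fell (9 and 1 with median-of-ratios scaling). The sodium-phosphate cotransporter Slc34a1 was at 3025.38, 3082.99 and 3214.81 FPKM in PR3_KO and 1857.98, 1074.35 and 1479.82 FPKM in WT (limma log2 fold change 1.11, SE 0.21, adjusted p = 0.00394). Its relative Slc34a3 rose by 2.38 and the organic cation carrier Slc22a4 by 1.04 (limma adjusted p = 0.000598 and 0.00289). Scarb1, a lipoprotein receptor that PDZK1 binds, fell, with 13.3 ± 1.49 against 29.0 ± 4.74 FPKM (limma adjusted p = 0.00106). The ratio of Pdzk1 to Slc34a1, chosen after the values were seen, was 0.139 to 0.159 in PR3_KO and 0.203 to 0.253 in WT. For Slc9a3r1 to Slc34a1 it was 0.0488 to 0.0649 in PR3_KO and 0.0678 to 0.0945 in WT. For Slc4a4 to Slc34a1 it was 0.0373 to 0.0440 and 0.0468 to 0.0525, while Slc9a3 to Slc34a1 overlapped. A lower ratio to Slc34a1 in every PR3_KO library was thus not particular to the scaffolds. None of these ratios was tested. Of the 12 tested sodium-coupled uptake carriers of the brush border 9 rose and 0 fell, as with median-of-ratios scaling. They included the sulfate carrier Slc13a1 (1.43), the neutral amino acid carrier Slc6a19 (1.74) and the glucose carrier Slc5a2 (1.75), with limma adjusted p of 0.000684, 0.00125 and 0.00201. Of the carriers on this list, Slc34a1, Slc5a2, Slc5a12 and Slc6a19 are also among the proximal tubule markers, so the counts for these lists are not separate.

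Aqp1 encodes the water channel of the proximal tubule and thin descending limb, also found in red cells and some endothelium. It lies on chromosome 6 from 55336299 to 55348555 on the plus strand (gene ID 11826). Levels were 206.42, 193.03 and 215.53 FPKM in PR3_KO and 150.65, 107.59 and 125.94 FPKM in WT. The lowest PR3_KO library was well above the highest WT library. Aqp1 rose by a log2 fold change of 0.69 (SE 0.15, 205 ± 11.3 against 128 ± 21.6 FPKM, n = 3 per genotype, limma adjusted p = 0.00632, the smallest of the 7). It stayed past the threshold without any 1 of the 6 libraries (0.57 to 0.81).

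Markers of other cells that make aquaporin 1 were also read. None of those tested rose, but few erythroid and thin limb markers passed the filter. The part of these cells in the level of Aqp1 was not tested. Of 8 erythroid markers 2 were tested. Of these Slc4a1, also a gene of intercalated cells, fell, and Alas2 was not past the threshold. The 8 summed to 6.60 to 15.05 FPKM in PR3_KO and 13.77 to 14.35 FPKM in WT. Hemgn was at 0 in 5 of the 6 libraries. Of 6 markers of the thin descending limb and vasa recta 3 were tested, of which 1 fell, with a sum of 58.76 to 78.43 FPKM in PR3_KO and 67.98 to 77.55 FPKM in WT, most of it Akr1b3. The urea transporter genes Slc14a2 and Slc14a1, listed among these markers and both under the filter, were at 0 to 0.44 FPKM in PR3_KO and 0.18 to 3.47 FPKM in WT. Of the 12 glomerular endothelium markers 12 fell.

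Of 5 other tested aquaporins of 10 listed, 1 rose and 2 fell (2 and 1 with median-of-ratios scaling). As deposited the share that fell is near the 41.1% of all tested genes. Aqp11, an intracellular aquaporin of the proximal tubule, was at 41.24, 36.30 and 34.72 FPKM in PR3_KO and 25.73, 15.53 and 19.71 FPKM in WT (limma log2 fold change 0.87, adjusted p = 0.00463). Aqp6, of intercalated cells, fell, with 9.03 ± 1.62 against 18.9 ± 4.73 FPKM (limma adjusted p = 0.00483). Aqp2, the vasopressin-regulated channel of the collecting duct, was at 46.51, 62.52 and 49.40 FPKM in PR3_KO and 78.72, 112.41 and 208.52 FPKM in WT (limma log2 fold change -1.21, adjusted p = 0.0165). That call was lost with median-of-ratios scaling, without PR3_KO 1 and without WT 2 (limma adjusted p = 0.059, 0.0656 and 0.073).

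Atp1b1 and Fxyd2 are also expressed in the thick limb and distal tubule. Of 12 tested carriers, channels and markers of these segments and the collecting duct, 5 fell and 0 rose. The share that fell was near that of all tested genes, of which 41.1% fell and 11.7% rose. With median-of-ratios scaling 0 of the 12 passed the threshold in either direction. Next to Aqp2, the sodium channel subunit genes Scnn1b, Scnn1a and Scnn1g fell; limma gave log2 fold changes of -0.53, -0.46 and -0.66, with adjusted p of 0.0391, 0.041 and 0.0469. These 3 calls were lost with no filter and in each refit without PR3_KO 1, WT 2, WT 3 or PR3_KO 3 (adjusted p of 0.0624 to 0.148 from limma).

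**Figure D2:**
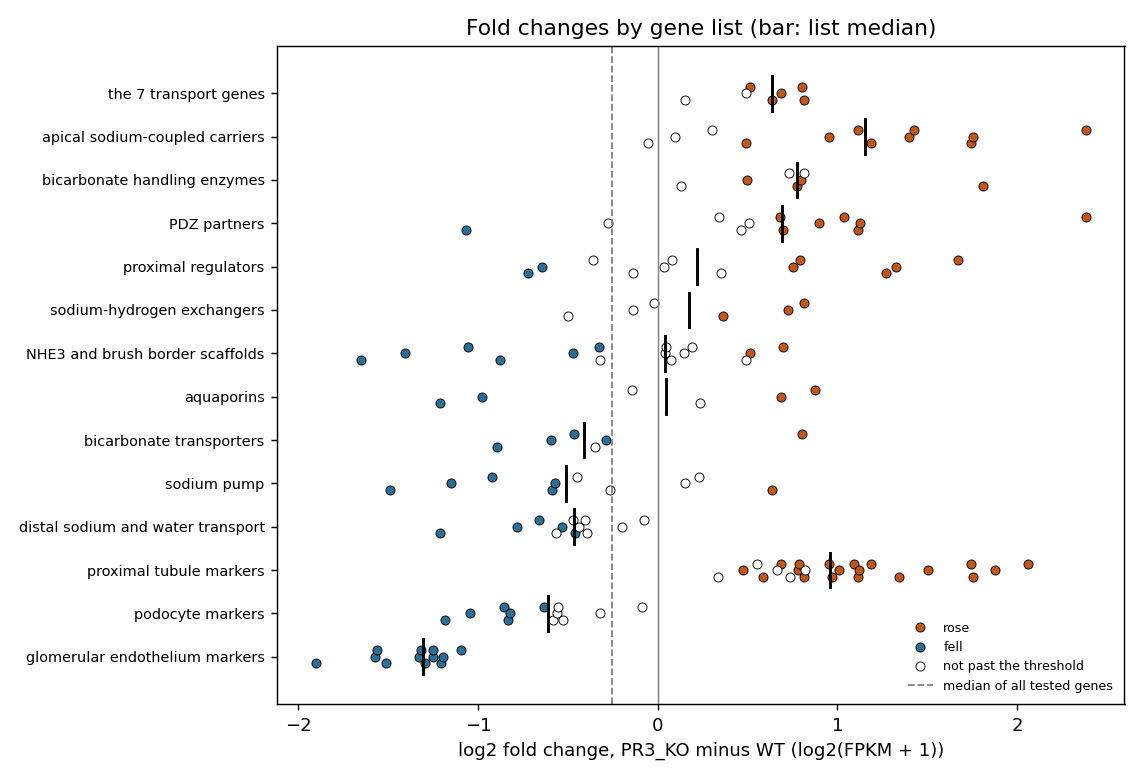
Log2 fold change (horizontal axis) of each tested gene of 14 gene lists, filled where it passed the adjusted p threshold, with a bar at each list's median. The 7 transport genes have a median of 0.63, below that of the proximal tubule markers at 0.96 and far above the dashed median of all tested genes at -0.26.

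Known regulators of proximal transport were split. Of 12 tested receptors, kinases and transcription factors of 16 listed, 5 rose and 2 fell (7 and 1 with median-of-ratios scaling). The fatty acid sensor Ppara rose by 1.67 and the adrenergic receptor Adra2b by 1.27, while Stk39, the kinase SPAK that acts on distal chloride cotransporters, fell by 0.72 (limma adjusted p = 0.000838, 0.00269 and 0.00246). Hnf4a, named after its values were seen, was at 158 ± 15.1 against 92.6 ± 22.8 FPKM (limma log2 fold change 0.79, adjusted p = 0.0107).

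When each library was scaled to the proximal tubule markers, 0 of the 7 genes rose and 2 fell, where 0.412% of all tested genes rose and 84.3% fell. Atp1b1 was at -0.82 (SE 0.21, limma adjusted p = 0.000246) and Pdzk1 at -0.48 (SE 0.22, limma adjusted p = 0.0384). Slc9a3r1, Fxyd2, Aqp1, Slc4a4 and Slc9a3 were at -0.45, -0.34, -0.28, -0.16 and -0.080 (limma adjusted p = 0.0662 to 0.797). Scaled in this way, Slc9a3 was at 9.94, 10.7 and 14.0 FPKM in PR3_KO and 12.8, 12.7 and 11.0 FPKM in WT, which overlap. Atp1b1 was at 524, 562 and 639 FPKM in PR3_KO and 887, 1171 and 1004 FPKM in WT, which do not. Of the other genes named as risen, Slc34a1, Slc22a4, Adra2b and Slc13a1 stayed above 0 under this scaling but lost their calls (0.14, 0.13, 0.35 and 0.46; limma adjusted p = 0.502, 0.679, 0.238 and 0.0637). Aqp11, Car14, Car2, Glud1, Hnf4a, Pdzd3, Slc9a2 and Slc9a8 were below 0 and not past the threshold. The fit takes the scaling as known, so its error is not in these p-values.

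With median-of-ratios scaling, which sets the typical gene equal between libraries, 6 of the 7 rose and 0 fell, where 25.4% of all tested genes rose and 22.3% fell. That scaling moved the median of all genes from -0.26 to 0.03. Relative to the median of all genes the 7 were higher by 0.41 to 1.07 as deposited and by 0.45 to 1.10 after it, with Atp1b1 the lowest both times.

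**Figure D3:**
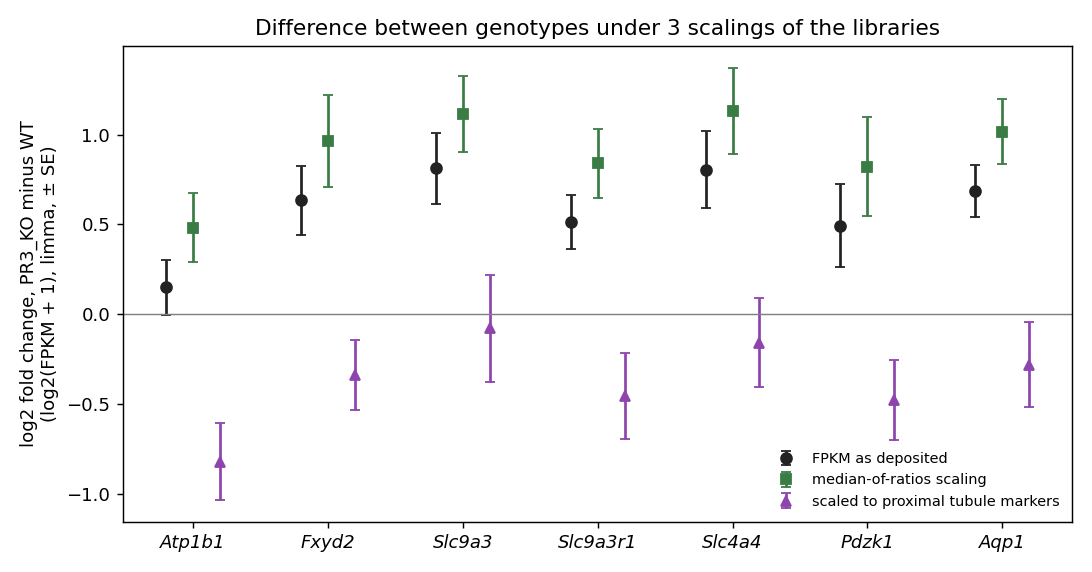
Log2 fold change with its limma SE (vertical axis) of the 7 genes as deposited, with median-of-ratios scaling and scaled to the proximal tubule markers. All 7 lie above 0 in the first 2 and below 0 in the third, where Slc9a3 at -0.080 is nearest to 0 and Atp1b1 at -0.82 is farthest.

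Ratios between the 7 genes within a library do not depend on its scaling. Of 21 pairs, 5 had ratios that did not overlap between genotypes, and Atp1b1 was in all 5. Sharing that gene, the 5 pairs are not separate results. How often pairs of genes outside the 7 separate in this way was not counted. Atp1b1 was at 3.60, 4.04 and 4.05 times the level of Aqp1 in PR3_KO and 5.46, 5.81 and 5.72 times in WT, a log2 difference of -0.54. Against Slc4a4 its ratio was 6.59, 6.40 and 6.18 in the PR3_KO libraries and 8.43, 11.8 and 10.4 in the WT libraries. Against Slc9a3 it stood at 52.8, 52.4 and 45.6 in the former and at 69.2, 92.1 and 91.3 in the latter. Atp1b1 was thus lower relative to these genes in every PR3_KO library. Against Fxyd2 and Slc9a3r1 the log2 difference was -0.48 and -0.37, and against Pdzk1, where the genotypes overlapped, it was -0.34. The difference to Slc9a3r1 was -0.21 without PR3_KO 1, and that to Pdzk1 was -0.16 without WT 2. Each of the 5 pairs had p = 0.1 in a two-sided exact permutation test, the lowest value possible here, and 0.42 after adjustment over the 21 pairs, so none could pass a threshold of 0.05.

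Among the other 6 genes the ratios overlapped between genotypes in all 15 pairs. Slc4a4 and Slc9a3, exit and entry steps of bicarbonate reabsorption, kept a ratio of Slc9a3 to Slc4a4 of 0.122 to 0.136 in PR3_KO and 0.114 to 0.128 in WT. The ratio of Slc9a3r1 to Pdzk1 was 0.350 to 0.408 in PR3_KO and 0.310 to 0.465 in WT. The largest log2 difference among these pairs was 0.39, for Slc9a3 to Pdzk1 (two-sided exact permutation test, p = 0.2, 3 libraries per genotype).

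**Figure D4:**
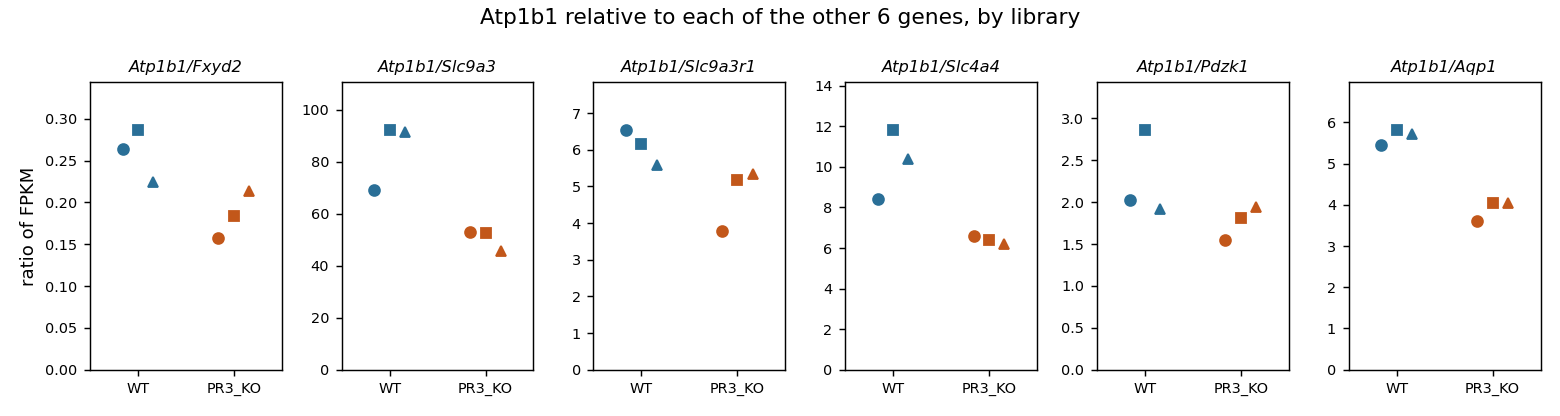
Ratio of the FPKM of Atp1b1 to that of each of the other 6 genes (vertical axes, from 0) in the 3 WT and 3 PR3_KO libraries, with circles, squares and triangles for replicates 1, 2 and 3. All PR3_KO ratios lie below all WT ratios for 5 of the 6 genes, and overlap for Pdzk1, where PR3_KO 3 at 1.95 is above WT 3 at 1.92.

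The spread within a genotype also differed between genes. The coefficient of variation in WT was 30.9%, 30.3% and 30.1% for Slc4a4, Slc9a3 and Pdzk1, and 12.6% and 13.7% for Slc9a3r1 and Atp1b1. In PR3_KO it was 17.0% for Slc9a3 and 5.52% to 13.8% for the other 6. With 3 libraries each, these figures are imprecise.

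For each of the 7 genes, the genes with the most similar pattern were sought among 6535 genes whose mean was 10 FPKM or more, by the Pearson correlation of log2(FPKM + 1) over the 6 libraries. The libraries fall into the 2 genotypes, so these values are descriptions. Fxyd2 was most like Spr, Cisd1 and Mpp1 (r = 0.999 for each), and Atp1b1 like Slc35a3, Nceh1 and Atp11a (r = 0.993, 0.986 and 0.982). Slc9a3 was most like Galns and Furin (r = 0.996 and 0.995), and Slc4a4 like Cldn12, Nlrp6 and Mgat3 (r = 0.998, 0.996 and 0.996). Slc9a3r1 was most like Tmem134, Inmt and Bnip3 (r = 0.994, 0.994 and 0.993), and Pdzk1 like Sod2, Lactb2 and Erich4 (r = 0.999, 0.998 and 0.997). Aqp1 was most like Acss2, Spc25 and Sdha (r = 0.999, 0.999 and 0.998). None of the 7 genes was among the 3 nearest of another.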

How the data were processed

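The authors deposited 1 file per library with FPKM per Entrez gene ID to 2 decimals, per the file headers. Per the submitters' processing notes, Bowtie2 and GRCm38.p6 were used; the version, quantification tool, annotation, strand and any filter were not given in the sources used here. Of 22064 gene IDs 18822 had values, and 18770 of these matched the RefSeq table of GRCm38.p6. Files were joined in Python 3.11.15 (scipy 1.17.1, pandas 2.3.3, numpy 2.4.6) and plotted with matplotlib 3.10.9. Genes whose mean FPKM was 1 or more were fitted as log2(FPKM + 1) with limma 3.58.1 and statmod 1.5.0 in R 4.3.3, with genotype as the only term, an intensity trend and robust moderation, tested on simulated data. P-values were adjusted by Benjamini-Hochberg over all tested genes.

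The 7 genes and all lists were chosen with earlier results of these data known. Genes named are the 7, up to 4 other genes of each pathway list by smallest adjusted p (the 2 most abundant where none passed), the 3 most similar genes of each of the 7, and Prtn3; others are marked, and some genes under this rule are not reported here. Alternatives were median-of-ratios scaling, scaling to 24 proximal tubule markers, a pseudocount of 0.1, no filter, no trend or robust moderation, a replicate block and leaving out each library. Leaving out WT 2 and PR3_KO 3 together was added after seeing the data. Equal replicate numbers in the 2 genotypes were not shown to pair the libraries.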

Additional observations from a re-analysis of the deposited data

How the results depend on the processing

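Of 91 refits of the 7 genes (13 alternatives each), 76 kept direction and side of the threshold, 6 lost a call, 1 gained it and 8 changed sign. With median-of-ratios scaling 3149 genes rose and 2767 fell, against 1454 and 5091 as deposited, and Slc4a2 turned to 0.022. Scaled to the proximal tubule markers, 51 genes rose and 10444 fell, and 0 of the 7 genes rose and 2 fell. Atp1b1 was then at -0.82, Fxyd2 at -0.34, Slc9a3 at -0.080, Slc9a3r1 at -0.45, Slc4a4 at -0.16, Pdzk1 at -0.48 and Aqp1 at -0.28. Among other named genes, Aqp11, Car14, Car2, Glud1, Hnf4a, Pdzd3, Slc9a2 and Slc9a8 were then at -0.064, -0.17, -0.47, -0.19, -0.17, -0.24, -0.16 and -0.52. Slc34a1, Slc22a4, Adra2b and Slc13a1 lost their calls, and Slc34a3, Pck1, Slc5a2, Slc6a19 and Ppara kept theirs. This scaling by construction reads every gene against a list that rose. In refits on fewer libraries Atp1b1 ranged from -0.015 without WT 2 and PR3_KO 3 together to 0.25 without WT 1. Leaving out 1 library gave 2 to 5 of the 7 risen, 3 without PR3_KO 1, 4 without PR3_KO 2 and 2 without PR3_KO 3, and 0 fallen each time. Over all genes 917 to 1514 rose, lowest without PR3_KO 1 and 943 without PR3_KO 3, and 3837 to 4764 fell. The cause was not tested. With the replicate number as a block, 5 of the 7 rose, 1550 genes rose and 5143 fell. The labels do not say that equal numbers pair animals, so the numbers were not taken as pairs. Deviations of same-numbered libraries from their genotype means correlated at 0.07, 0.27 and -0.09, and not every library correlated best with its own number. With 3 libraries per mean, these values check pairing only weakly. The log2 ratios of the 21 pairs moved by less than the larger of the 2 genotype SDs in all 126 values without 1 library. With 3 libraries per genotype this holds by arithmetic, so it is no check of the ratios. Without 1 library the log2 difference changed sign for Fxyd2 to Aqp1 (-0.12 to 0.046) and Slc9a3r1 to Pdzk1 (-0.099 to 0.19), and for no other pair. The files give no counts, so counting error is not separated from the spread between libraries.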
